A study of Mus musculus with 68 samples.

Results

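The nuclear-encoded genes of the mitochondrial respiratory chain were described in intestinal tumours and normal intestine of mice that differed in Cftr and Apc genotype. Members were the rows whose gene symbol began with Nduf followed by a, b, c, s or v, with Uqcr, with Cox4 to Cox8 or with Atp5, or was Sdha, Sdhb, Sdhc or Sdhd, which gave 92 of the 23356 rows of the table. They comprised 36 subunits of complex I, 7 complex I assembly factors, 4 subunits of complex II, 8 of complex III, 19 of complex IV and 15 of complex V. The remaining 3 were Ndufa4l2, an isoform of Ndufa4, and Atp5s and Atp5sl, whose symbols resemble those of ATP synthase subunits but whose products are not part of the enzyme. The 82 subunits of the 5 complexes are called core subunits below. After a filter on low values, 89 members and 79 core subunits could be tested, and Cox6a2, Cox7b2 and Cox8c could not. The respiratory chain genes of the mitochondrial genome were not analysed here.

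RNA had been sequenced from 23 specimens of C57BL/6 mice aged 3 months, in 12 groups, to compare Cftr deficiency in Apc wildtype and in ApcMin mice. Cftr encodes an epithelial chloride and bicarbonate channel. The Apc protein restrains Wnt signalling, and its Min allele makes mice prone to intestinal tumours. Apc wildtype mice labelled Cftr knockout (KO) gave 2 duodenal tumours, 1 colon tumour, 2 specimens of normal duodenum and 2 of normal colon. Apc wildtype mice with wildtype Cftr (WT) gave 2 specimens each of normal duodenum and normal colon. In these mice the knockout is a floxed Cftr allele deleted by Cre from the Villin promoter, which is active in gut epithelium, so other cells of the tissue keep the gene. ApcMin mice gave 2 colon and 2 ileum tumours labelled KO, 2 colon and 2 duodenal tumours from Cftr heterozygotes, which the labels call a knockdown, and 2 colon and 2 ileum tumours with WT Cftr. For ApcMin mice the sources used here do not state which Cftr allele was used. ApcMin tumours of a given Cftr genotype and organ carried the same animal number, and so did the ileum and colon tumours of each genotype, so genotype cannot be told apart from animal. Over all specimens there were 10 animal numbers, and p-values measure the spread between specimens, some of which shared an animal.

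Several facts of the whole series bear on these genes. Cftr was at 30.5 and 25.9 FPKM (fragments scaled by transcript length and library size) in colon labelled KO, against 22.2 and 21.7 FPKM in WT colon. In duodenum it was at 33.0 and 47.2 FPKM in specimens labelled KO, against 31.3 and 32.0 FPKM in WT. The table has 1 value per gene and cannot show a deleted exon, so these levels do not check the label, and KO below means labelled KO. All ApcMin tumours had 24.0 to 55.6 FPKM of Xist, an RNA made from the silenced X of female cells, KO duodenal tumour 1 had 34.2 FPKM, and all other specimens had 0.0212 to 0.461 FPKM. Sex and tumour therefore cannot be told apart where ApcMin tumours are set against normal tissue. The 2 WT duodenum specimens differed by no more than the noise between lanes in run 1 (ratio 0.987) and by 1.05 times that noise in run 2, against 1.96 to 5.48 in the other groups, and were counted as 1 sample. The columns had relative depths of 0.717 to 1.32. Epithelial markers were all detected, 14 of 14 in each group, with summed levels of 7317 to 16910 FPKM.

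The respiratory chain passes electrons from NADH through complex I, or from succinate through complex II, to ubiquinone, then through complex III and cytochrome c to oxygen at complex IV. Complexes I, III and IV pump protons across the inner mitochondrial membrane, and complex V, the ATP synthase, uses their return flow to make ATP. Nearly all subunits are encoded in the nucleus, and their promoters are known targets of NRF1, of ETS-family factors such as NRF2/GABP and of oestrogen-related receptors (ERR), which the coactivators PGC-1alpha and PGC-1beta (Ppargc1a, Ppargc1b) assist. In the gut, absorptive epithelium is rich in mitochondria, whereas glycolysis is prominent in many tumours.

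Promoters of 5 members are shown as examples with and without a match to these factors' motifs, and their levels follow with the results. RefSeq promoter sequences (GRCm38.p6) were found for 76 of the 92 members, each a window of 300 bases from 250 before to 50 after the start site, written 5′ to 3′ on the gene's strand. Capitals mark a match, on either strand, to GCGCATGCG (NRF1), CCGGAAGT (ETS) or TCAAGGTCA (ERR), and positions below count from the start site. Uqcrc1, a core protein of complex III (chr9:108936398-108936697, plus strand), had the NRF1 letters on both strands, overlapping at 31 to 40.
Uqcrc1: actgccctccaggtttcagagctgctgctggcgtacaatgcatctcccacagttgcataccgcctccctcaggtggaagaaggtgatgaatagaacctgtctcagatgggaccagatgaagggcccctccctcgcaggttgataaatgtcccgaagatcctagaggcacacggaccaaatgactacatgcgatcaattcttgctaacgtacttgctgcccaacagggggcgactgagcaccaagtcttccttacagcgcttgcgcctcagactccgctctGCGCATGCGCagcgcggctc
Uqcr11, a small complex III subunit (chr10:80406772-80407071, minus strand), had the ETS letters at -66 to -59 and the NRF1 letters at -5 to 4.
Uqcr11: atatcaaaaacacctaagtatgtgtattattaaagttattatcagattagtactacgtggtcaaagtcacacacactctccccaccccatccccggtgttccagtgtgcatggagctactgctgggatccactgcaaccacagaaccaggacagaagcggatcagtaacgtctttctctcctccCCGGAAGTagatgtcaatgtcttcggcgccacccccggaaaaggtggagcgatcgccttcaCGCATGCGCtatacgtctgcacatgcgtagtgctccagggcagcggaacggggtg
Sdhd, a membrane anchor of complex II (chr9:50603800-50604099, minus strand), had the ERR letters at 37 to 45.
Sdhd: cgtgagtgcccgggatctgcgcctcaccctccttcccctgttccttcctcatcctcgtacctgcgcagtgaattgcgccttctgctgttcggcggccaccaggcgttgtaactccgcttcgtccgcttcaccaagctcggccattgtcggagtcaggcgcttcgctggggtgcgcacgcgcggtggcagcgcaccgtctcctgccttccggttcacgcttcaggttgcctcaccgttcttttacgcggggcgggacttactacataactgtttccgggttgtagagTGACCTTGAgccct
Atp5g3, a gene for the c subunit of ATP synthase (chr2:73911277-73911576, minus strand), had the ERR letters at -52 to -44.
Atp5g3: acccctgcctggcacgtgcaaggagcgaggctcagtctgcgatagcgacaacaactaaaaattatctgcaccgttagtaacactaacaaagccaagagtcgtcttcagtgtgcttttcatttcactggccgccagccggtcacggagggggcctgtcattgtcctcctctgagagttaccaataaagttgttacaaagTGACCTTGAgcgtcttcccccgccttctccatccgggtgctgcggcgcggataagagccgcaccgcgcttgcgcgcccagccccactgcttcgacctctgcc
Cox7a1, the complex IV isoform known from heart and skeletal muscle (chr7:30183921-30184220, plus strand), had none of these letters in the window.
Cox7a1: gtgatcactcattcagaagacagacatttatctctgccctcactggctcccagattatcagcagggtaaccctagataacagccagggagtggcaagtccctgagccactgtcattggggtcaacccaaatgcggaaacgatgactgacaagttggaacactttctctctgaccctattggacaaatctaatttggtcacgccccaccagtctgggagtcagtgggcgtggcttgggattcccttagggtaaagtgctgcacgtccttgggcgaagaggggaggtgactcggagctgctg

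The NRF1 letters stood in 10 of the 76 member promoters (13.2%), against 527 of 27025 promoters of all genes (1.95%). The other holders were Atp5g2, Atp5k, Atp5l, Cox6a1, Ndufa8, Ndufa11, Ndufaf4 and Ndufaf5. The ETS letters stood in 5 member promoters (6.58%) and 4.31% of all, and the ERR letters in 2 member promoters (2.63%), those of Sdhd and Atp5g3, and 0.466% of all. A match describes the letters and was not tested as a binding site.

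Together the core subunits made up 3.10% to 6.09% of the summed FPKM of a specimen. Their share was 5.08% and 5.22% in KO duodenal tumours, 3.86% and 4.61% in ApcMin heterozygous duodenal tumours, and 5.57% to 6.09% in normal duodenum. In colon it was 3.75% in the KO tumour, 3.88% and 4.42% in ApcMin KO tumours, 4.15% and 4.20% in heterozygous tumours, 3.41% and 4.67% in ApcMin WT tumours, and 5.16% to 5.60% in normal colon. Ileum tumours, for which no normal ileum was sampled, had 3.50% and 4.05% with KO and 3.10% and 3.45% with WT Cftr. Every tumour thus lay below the normal specimens of its own organ in this share, where such specimens existed. Complex I subunits contributed 0.760% to 1.24% of all FPKM per group mean, complex II 0.106% to 0.254%, complex III 0.394% to 0.706%, complex IV 0.946% to 1.70% and complex V 1.07% to 1.99%. For each complex the lowest group mean of this share was that of the ApcMin WT ileum tumours. The highest was KO duodenum for complexes I, II, III and V, and KO colon for complex IV, at 1.70% against 1.69% in KO duodenum, a difference within the spread of the specimens. By median FPKM of the subunits the lowest groups were others. The single KO colon tumour was lowest for complexes I, II, III and V, with 109.4 FPKM for complex I against 115.2 FPKM in ApcMin WT ileum tumours. For complex IV it was the ApcMin WT colon tumours, at 205.8 against 206.3 FPKM in ApcMin WT ileum tumours.

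**Figure D1:**
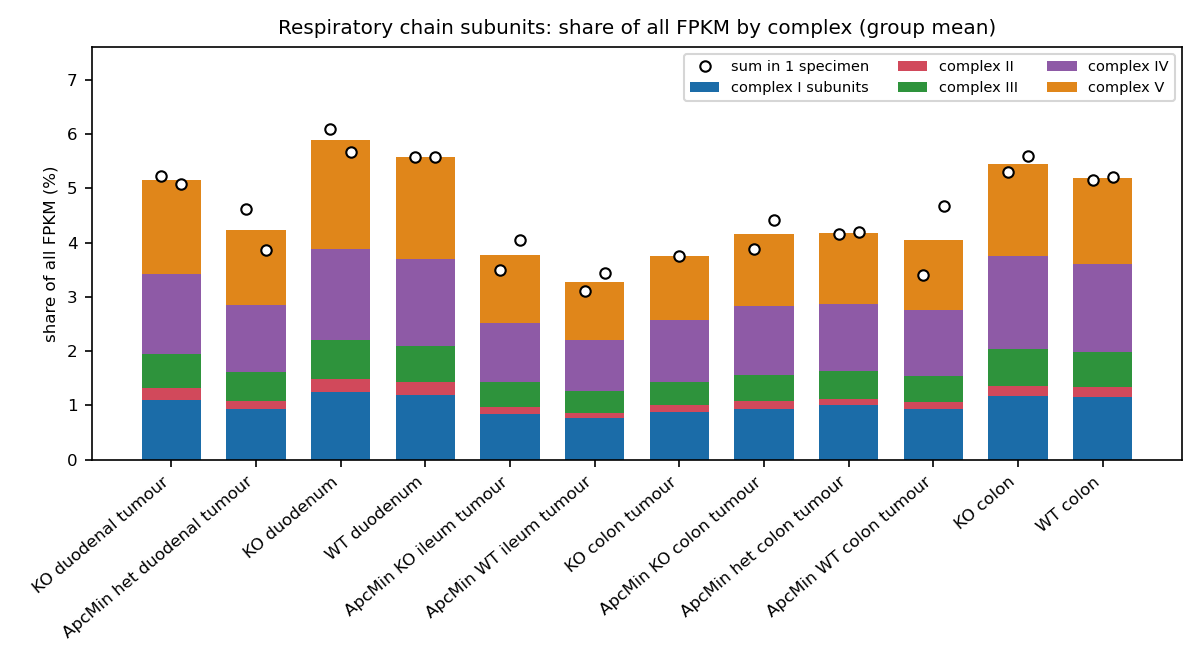
Summed FPKM of the core subunits as a percentage of all FPKM in each of the 12 groups, stacked by complex; bars are group means and open circles are the sum in each specimen. Normal duodenum and colon reach 5.16% to 6.09%, and every tumour lies below the normal specimens of its organ.

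The members differed among themselves in level and in how far they ranged over groups. FPKM is per length, so levels can be set side by side. All 92 had a position in the GRCm38 annotation, on 19 chromosomes with 3 genes on X. Sdhb, for example, lies at chr4:140961203-140979193 on the plus strand and Ndufa4 at chr6:11900292-11907497 on the minus strand. Averaged over the 23 specimens, the highest were Atp5g3 at 1338 FPKM, the beta subunit gene Atp5b at 1297 FPKM and Cox6a1 at 1218 FPKM. Complex I subunits were lower, with Ndufb9 the highest at 406 FPKM and Ndufa11 the lowest at 25.9 FPKM. The assembly factors, which help build complex I and are not part of it, averaged 3.87 FPKM (Ndufaf5) to 15.5 FPKM (Ndufaf3), apart from Ndufaf2, which was higher. Among core subunits with tissue-restricted expression elsewhere, Cox8c was at 0 in every specimen and Cox7b2 and Cox6a2 averaged 0.00492 and 0.258 FPKM. Cox7a1, by contrast, reached group means of 37.7 to 419 FPKM. The ratio of the highest to the lowest group mean was 11.1 for Cox7a1, 3.75 for the iron-sulphur subunit gene Sdhb and 3.58 for Uqcrc1, but 1.47 for Cox7a2l, a factor of respiratory supercomplexes, 1.39 for Atp5g2 and 1.37 for the assembly factor Ndufaf7.

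**Figure D2:**
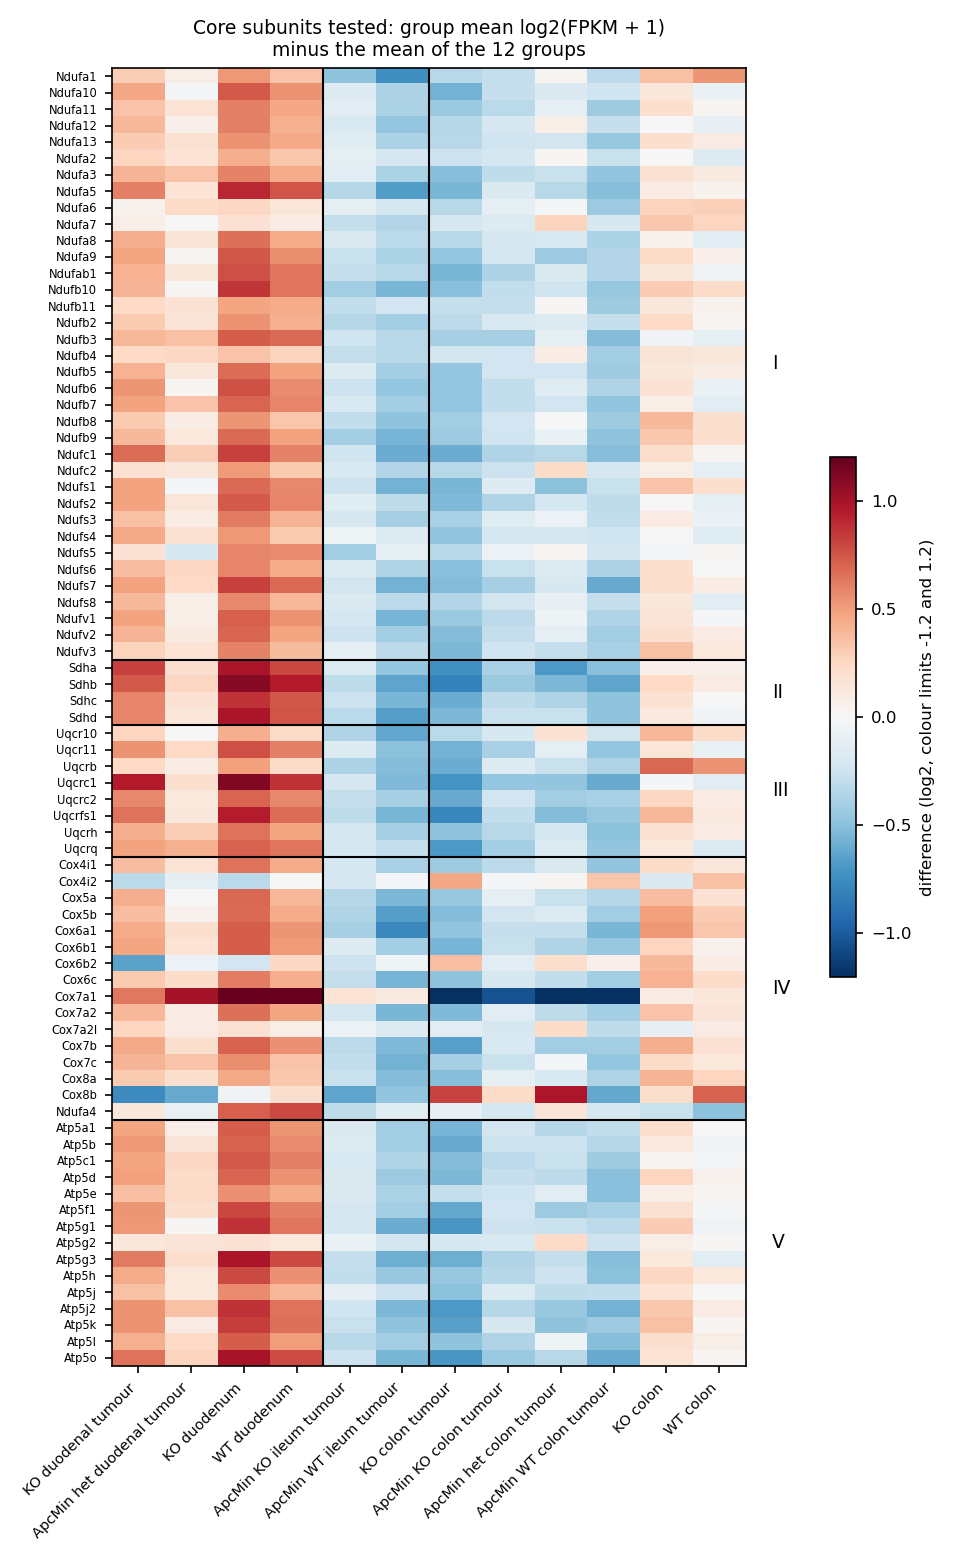
Each row is 1 of the 79 tested core subunits, ordered by complex, and each column 1 of the 12 groups; colour gives log2(FPKM + 1) of the group minus the mean of the 12 groups. Columns of normal duodenum are above the mean for most subunits and those of ileum and colon tumours below it, and Cox7a1 goes beyond the colour scale.

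Normal duodenum was compared with normal colon of the same Apc wildtype mice, averaged over the Cftr genotypes. The labels call the duodenum specimens epithelium and the colon specimens whole tissue, so organ and tissue preparation cannot be told apart in this comparison. Of the 89 members, 59 were higher in duodenum and 1 was lower, against 28.5% of all 14098 genes higher and 27.1% lower (limma, Benjamini-Hochberg adjusted p under 0.05 over all genes, as throughout). All 4 complex II genes were higher, with a median log2 difference of 0.83. In complex I 28 of 36 subunits were higher (median 0.47), in complex III 6 of 8 (0.50) and in complex V 14 of 15 (0.55). Complex IV stood lower in this order, with 3 of 16 tested members higher and a median of 0.24, which turned to -0.15 after quantile normalisation and -0.11 on a TPM scale. The complexes were not tested against each other.

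Among these, Sdhb was at 536 and 496 FPKM in KO duodenum and 474 and 464 FPKM in WT duodenum, against 278 and 292 FPKM in KO colon and 262 and 257 FPKM in WT colon. The organs did not overlap, and the log2 difference was 0.85 ± 0.17 (SE, adjusted p = 0.000878). Uqcrc1 was at 628, 598, 515 and 521 FPKM in the same duodenum specimens, against 271, 288, 262 and 258 FPKM in colon (log2 difference 1.06 ± 0.15, adjusted p = 6.95e-05). Ndufa4, first described in complex I and now known as a subunit of complex IV, was at 842 to 965 FPKM in duodenum and 385 to 476 FPKM in colon (1.13 ± 0.15, adjusted p = 3.54e-05). These are all clear separations, with every duodenum specimen above every colon specimen. Atp5g3 averaged 2319 ± 210 FPKM in duodenum (SD, n = 3) and 1228 ± 153 FPKM in colon (SD, n = 4). Sdhd averaged 591 ± 54.9 FPKM in duodenum and 323 ± 22.7 FPKM in colon (log2 difference 0.83 ± 0.15, adjusted p = 0.00039, limma), and Uqcr11 562 ± 47.7 FPKM in duodenum and 348 ± 35.9 FPKM in colon (0.66 ± 0.19, adjusted p = 0.00905). The organs did not overlap in these 3 genes. Within complex III, Uqcrb, a ubiquinone-binding subunit, did not share the direction, at 691 ± 73.2 FPKM in duodenum and 801 ± 88.5 FPKM in colon, and did not pass the test (adjusted p = 0.248).

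The assembly factors Ndufaf6, Ndufaf4 and Ndufaf1 were higher in duodenum, with log2 differences of 0.76, 0.74 and 0.57, and Ndufaf7 was lower, by 0.20 (adjusted p = 0.0474). The count of members higher in duodenum depended on scaling. On a TPM scale 20 members were higher and 10 lower. There the median of all genes moved to -0.28 and that of the core subunits was 0.12, which is 0.40 above it. After quantile normalisation 17 were higher and 9 lower. The shares of all genes under these scalings are not given here, so these counts have no background beside them. With animal as a block, since the same animals gave both organs, 72 members passed. That fit used the compared groups alone and counted the WT duodenum specimens separately, although they differed by about the noise between lanes. The share of all genes that passed in it is not given here, so the 72 has no background beside it. Enterocyte markers moved with the organ, 15 of 15 higher with summed levels of 33030 to 35990 FPKM in duodenum against 474 to 1806 FPKM in colon, and 4 of 10 smooth muscle markers were lower (915 to 982 FPKM against 2468 to 3118 FPKM). Their part in the result was not tested. In such bulk tissue, fewer cells of a type and less RNA per cell cannot be told apart.

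Duodenal tumours were compared with normal duodenum in both Apc genotypes. In the tumours of ApcMin heterozygotes, 65 of the 89 members fell relative to normal duodenum and none rose, against 9.26% of all genes that fell and 9.71% that rose. By complex, 28 of 36 complex I subunits fell (median log2 difference -0.46), as did all 4 of complex II (-0.73), 6 of 8 of complex III (-0.48), 9 of 16 of complex IV (-0.49), 13 of 15 of complex V (-0.51) and 4 of 7 assembly factors. No heterozygous normal tissue was sampled, so the comparison is with the mean of the KO and WT groups, in run 1, where these tumours were sequenced.

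Sdhb was at 293 and 283 FPKM in the heterozygous tumours, below all normal duodenum specimens (464 to 536 FPKM). In run 1 it averaged 288 ± 6.90 FPKM in tumours (SD, n = 2) and 511 ± 40.8 FPKM in normal duodenum (SD, n = 3), a log2 difference of -0.80 ± 0.08 (SE, adjusted p = 0.000981). Uqcrc1 was at 366 and 286 FPKM in the tumours, also below normal duodenum, and fell by 0.83 on the log2 scale (adjusted p = 0.00617). Ndufa4 fell by 0.90 (adjusted p = 0.00888), although its tumours were far apart, at 621 and 421 FPKM. Sdhd fell by 0.76 and Uqcr11 by 0.56. In complex V, Atp5g1 fell by 0.79 and Atp5g3 by 0.74, both genes for the c subunit. The supernumerary complex I subunit gene Ndufb10 fell by 0.75 and the assembly factor gene Ndufaf4 by 0.84 (adjusted p = 0.0094). The log2 difference of Cox7a1 was -0.71 and did not pass the test (adjusted p = 0.0864). These calls rest on the spread shared by all run 1 groups: with the compared groups alone no member passed, and with a replicate block 30 did. The replicate block also counted WT duodenum as 2 specimens. Smooth muscle markers summed to 524 to 695 FPKM in these tumours and 915 to 982 FPKM in normal duodenum, with 1 of 10 lower, and enterocyte markers to 21580 to 27800 FPKM against 33030 to 35990 FPKM, with 1 of 15 lower. Their part was not tested.

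In the KO duodenal tumours no core subunit passed the test against KO duodenum. The test called 2 members, both lower, against 4.23% of all genes lower. They were Ndufaf6, with 7.73 and 7.90 FPKM in tumours against 10.5 and 10.8 FPKM in normal tissue (log2 difference -0.40 ± 0.11, adjusted p = 0.0486), and Atp5sl, whose product (Dmac2) is known in complex I assembly, with 15.5 and 13.8 FPKM against 26.2 and 20.4 FPKM (-0.63 ± 0.15, adjusted p = 0.0215). In both genes the groups did not overlap. Of the 79 core subunits, 78 had negative differences, with a median of -0.25 and an all-gene median of -0.01. Sdhb was at 384 and 423 FPKM in these tumours, against 536 and 496 FPKM in KO duodenum (adjusted p = 0.347). Without KO duodenal tumour 2 or KO duodenum 1 neither member was called, and without either of the other specimens 1 was. Enterocyte markers summed to 21440 to 28760 FPKM against 33030 to 35510 FPKM, and smooth muscle markers to 158 to 659 FPKM against 976 to 982 FPKM, with 0 of 15 and 0 of 10 passing. Their part was not tested.

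Set directly against the heterozygous tumours of ApcMin mice, KO duodenal tumours had higher levels of 4 members, against 0.454% of all genes higher. They were Ndufs1, the largest iron-sulphur subunit of complex I, both Sdha and Sdhb of the catalytic part of complex II, and Uqcrc2, a core protein of complex III. Ndufs1 was at 95.2 and 99.9 FPKM in KO tumours and 71.8 and 66.0 FPKM in heterozygous tumours (log2 difference 0.49 ± 0.07, adjusted p = 0.0271). Sdha was at 312 and 375 FPKM in KO tumours and 238 and 209 FPKM in heterozygous tumours (0.59 ± 0.11, adjusted p = 0.0491). Neither gene overlapped between the groups. The KO tumour levels given are averages over both runs, whereas the test used run 1 columns. In run 1 the KO tumours averaged 97.28 FPKM for Ndufs1 and 336.6 FPKM for Sdha. Over the 79 core subunits the median was 0.30, with 74 positive. The call was fragile: with the compared groups alone none passed, without KO duodenal tumour 2 or heterozygous tumour 2 none passed, without KO duodenal tumour 1 16 did and without heterozygous tumour 1 22 did. The shares of all genes without each specimen are not given. Apc genotype, Cftr genotype and animal cannot be told apart here. Sex differed too, since Xist was at 0.0212 FPKM in KO duodenal tumour 2 and at 24.0 to 34.2 FPKM in the other tumours compared. Its part was not tested.

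**Figure D3:**
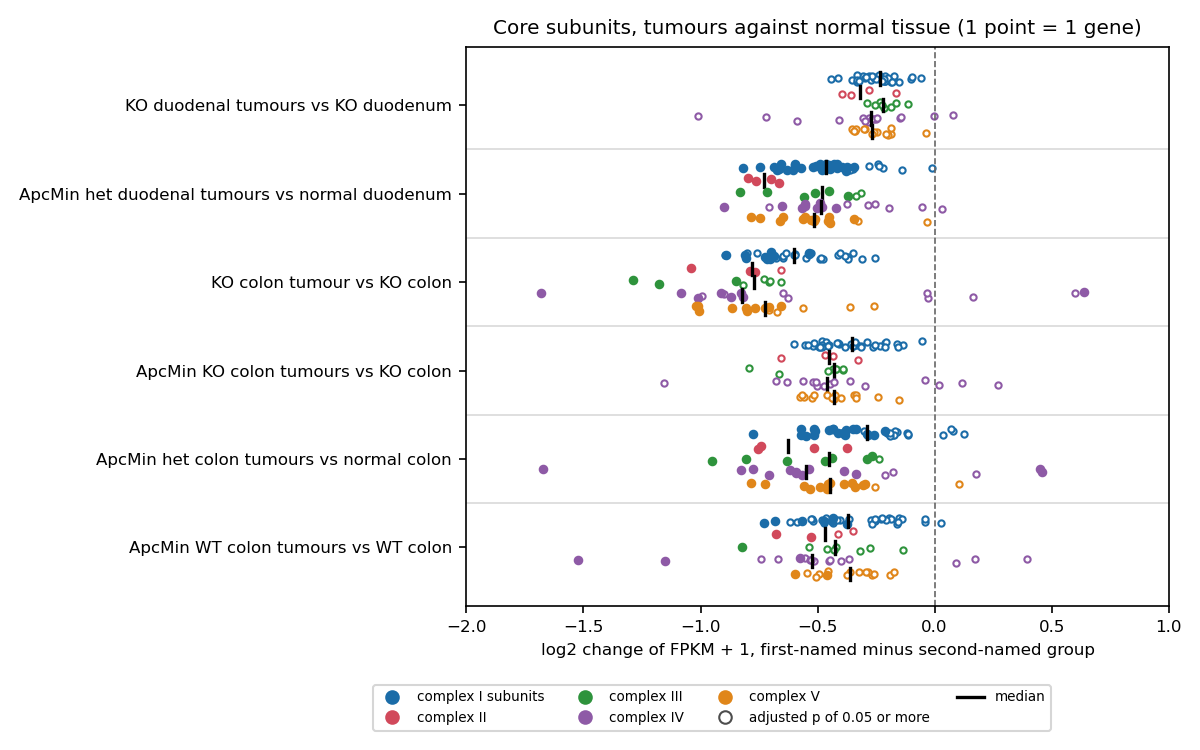
Log2 difference, tumour minus normal tissue, for each of the 79 tested core subunits in 6 comparisons, coloured by complex; filled points passed the adjusted p of 0.05, open points did not, and black bars are the medians of each complex. These medians are negative in all 6 comparisons, -0.22 to -0.82, whereas the number of core subunits that passed as lower ranges from 0 to 60.

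In colon, tumours of 4 kinds were compared with normal colon. Comparisons that use KO colon or WT colon share those control specimens, so they are not independent of each other. There was only 1 KO colon tumour, so the spread of such tumours was not measured and is assumed to be that of the other groups. It had 33 members lower and 1 higher than KO colon, against 5.7% of all genes lower and 7.12% higher. All 33 were core subunits: 10 of complex I, 3 of complex II, 3 of complex III, 7 of complex IV and 10 of complex V, and the core median was -0.70. None of the 7 assembly factors passed. Without KO colon 1 only 6 members passed and without KO colon 2 only 1.

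Uqcrb was at 344 FPKM in the KO colon tumour, against 758 and 934 FPKM in KO colon (log2 difference -1.29 ± 0.28, adjusted p = 0.0133). Uqcrfs1, the Rieske iron-sulphur protein of complex III, fell by 1.18 (adjusted p = 0.0159). Sdhb was at 138 FPKM, against 278 and 292 FPKM (-1.04 ± 0.26, adjusted p = 0.0239), and Ndufs1 at 47.1 FPKM, against 86.8 and 89.7 FPKM (-0.89 ± 0.17, adjusted p = 0.00671). For each of these genes the tumour lay below both normal specimens. Cox7a1 fell by 1.68, Cox7b, a small complex IV subunit, by 1.08 and Atp5j2, the f subunit of ATP synthase, by 1.02. Cox4i2, the isoform of subunit 4 known from lung and hypoxia, was higher, at 1.83 FPKM against 0.763 and 0.868 FPKM (0.64 ± 0.16, adjusted p = 0.0228), a low level beside 733 FPKM for Cox4i1 in the same tumour. With the compared groups alone 9 members passed, in run 1 alone 65 and in run 2 alone 16. On a TPM scale, which moved the all-gene median to 0.16, 15 were lower and 1 higher, and after quantile normalisation 20 were lower and 0 higher.

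In ApcMin WT colon tumours, 16 members were lower than in WT colon and 0 were higher, against 18.9% of all genes lower and 19.1% higher, so the count of lower members was close to the background. They included 7 complex I subunits, 2 of complex II, 1 of complex III, 3 of complex IV, 2 of complex V and Atp5sl. The core median was -0.42, but -0.12 without tumour 1 and -0.66 without tumour 2. The largest change was in Cox7a1, at 26.2 and 66.0 FPKM in tumours against 116 and 138 FPKM in WT colon (log2 difference in run 2 -1.52 ± 0.41, adjusted p = 0.0143). Uqcrb was at 308 and 528 FPKM in tumours, against 764 and 750.0 FPKM (-0.82 ± 0.23, adjusted p = 0.0191). The tumours were below normal colon in both genes but stood apart from each other. Tumour 1 was the lower in core share too, at 3.41% against 4.67% in tumour 2. Without tumour 2, 58 members passed, without tumour 1 or WT colon 2 only 1, without WT colon 1 only 2, and with the compared groups alone or a replicate block none.

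In ApcMin KO colon tumours none of the 89 members passed against KO colon, where limma called 10.9% of all genes (5.26% higher, 5.62% lower) and 4209 genes had an unadjusted p under 0.05. The core median was -0.42, and 76 of 79 differences were negative. Uqcrb had the smallest p of the members, at 411 and 527 FPKM in tumours against 758 and 934 FPKM in KO colon (log2 difference in run 2 -0.79 ± 0.23, adjusted p = 0.0529). Next came Atp5h, the d subunit of ATP synthase, with -0.57 (adjusted p = 0.0576). The groups did not overlap for either. Members passed under some of the other settings: 8 after quantile normalisation, 5 with WT duodenum as 2 specimens, 4 on a TPM scale and 1 with the compared groups alone.

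In the colon tumours of ApcMin heterozygotes, 56 members were lower and 3 higher than in normal colon, against 26.5% of all genes lower and 26.8% higher. Complex I had 20 of 36 lower (median -0.29), complex II all 4 (-0.63), complex III 7 of 8 (-0.45), complex IV 11 lower and 2 higher of 16 (-0.55) and complex V 13 of 15 lower (-0.45). Ndufs1 was at 49.1 FPKM in both tumours, against 86.8 and 89.7 FPKM in KO colon and 81.5 and 78.1 FPKM in WT colon (log2 difference in run 1 -0.78 ± 0.06, adjusted p = 6.03e-05). Sdhb was at 170 and 163 FPKM in the tumours, against 257 to 292 FPKM in normal colon (-0.74 ± 0.08, adjusted p = 0.000167). Neither overlapped. Cox7a1 fell by 1.67, Uqcrb by 0.95, Cox6a1 by 0.83, Uqcrfs1 by 0.81 and Atp5j2 by 0.78.

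The higher members were Ndufa4, Cox8b and Ndufa4l2. Ndufa4 was at 602 and 605 FPKM in the heterozygous tumours, above the 385 to 476 FPKM of normal colon (0.45 ± 0.15, adjusted p = 0.0349), and lost its call on leaving out any of 5 of the 6 specimens. Its differences were 0.39 (adjusted p = 0.0855) in ApcMin WT colon tumours, 0.12 in ApcMin KO colon tumours and 0.17 in the KO colon tumour, none of which passed. Ndufa4l2, whose product is known as a hypoxia-induced relative of Ndufa4, was at 4.38 and 3.20 FPKM in tumours, against 0.896 to 1.33 FPKM in normal colon (1.07 ± 0.12, adjusted p = 0.000217). Cox8b, a muscle isoform, was at 2.71 and 1.98 FPKM, against 0.762 to 2.04 FPKM, and overlapped. Without heterozygous colon tumour 2, 37 members passed in all.

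Markers of other cells were described for the colon comparisons. Of all genes, 5.62% were lower in ApcMin KO, 26.5% in heterozygous and 18.9% in ApcMin WT tumours. Those higher were 5.26%, 26.8% and 19.1% in the same order, and the shares for the KO colon tumour are given above. Smooth muscle markers summed to 1337 FPKM in the KO colon tumour, 252 to 631 FPKM in ApcMin KO tumours, 584 to 780.4 FPKM in heterozygous tumours and 135 to 1019 FPKM in ApcMin WT tumours, against 2468 to 3118 FPKM in normal colon. The numbers lower were 1, 3, 10 and 10 of 10 in that order of tumours. Colonocyte markers summed to 748 FPKM in the KO colon tumour, 872 to 3095 FPKM in ApcMin KO, 441 to 495 FPKM in heterozygous and 247 to 3668 FPKM in ApcMin WT tumours, against 6675 to 7124 FPKM in KO colon and 4157 to 5351 FPKM in WT colon. Those lower numbered 1, 1, 8 and 6 of 9. Macrophage and neutrophil markers summed to 930 FPKM in the KO colon tumour, 332.5 and 230.5 FPKM in ApcMin KO tumours, 1617 and 2023 FPKM in heterozygous tumours, and 1092 and 273.5 FPKM in ApcMin WT tumours 1 and 2, against 229.9 to 340.1 FPKM in normal colon. Those higher numbered 5, 2, 4 and 4 of 9 tested, and those lower 0, 2, 3 and 1. ApcMin WT tumour 1, with the lower core share of the 2, had the higher macrophage and neutrophil sum. It also had the lower colonocyte sum (247 against 3668 FPKM) and the lower smooth muscle sum (135 against 1019 FPKM). The heterozygous tumours had macrophage and neutrophil sums of 1617 and 2023 FPKM and a core share of 4.175% on average. Pericyte and fibroblast markers summed to 1082 FPKM in the KO colon tumour, with 6 of 11 higher, 363 to 447 FPKM in the other colon tumours and 386 to 497 FPKM in normal colon. None of the smooth muscle, colonocyte, macrophage or pericyte markers tested was at 0 in any group, and their part in the results was not tested.

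**Figure D4:**
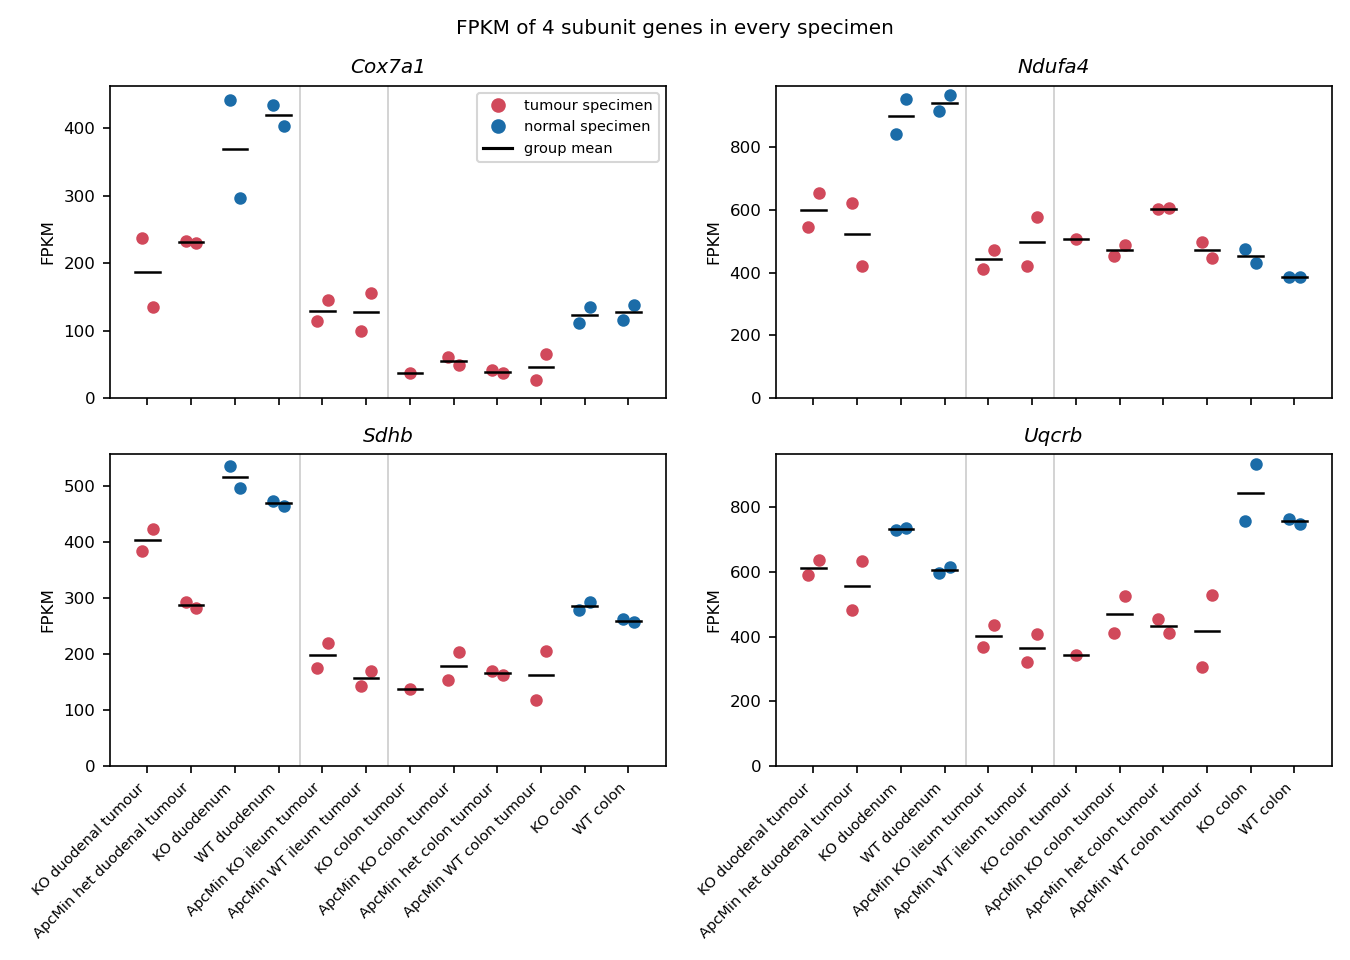
FPKM of Cox7a1, Ndufa4, Sdhb and Uqcrb in every specimen, with groups along the horizontal axis, tumours left of the normal tissue of their organ. Sdhb, Cox7a1 and Ndufa4 are highest in normal duodenum, Uqcrb in normal colon, and Ndufa4 in heterozygous colon tumours (602 and 605 FPKM) lies above normal colon.

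Ileum tumours of ApcMin mice were compared with colon tumours of the same Cftr label. Each comparison rests on a single mouse, since 1 animal number covers all 4 WT tumours and another all 4 KO tumours, so the p-values concern tumours within a mouse. In the WT tumours 1 of 89 members was higher in ileum, against 7.05% of all genes higher. It was Cox7a1, at 99.2 and 156 FPKM in ileum tumours and 26.2 and 66.0 FPKM in colon tumours (log2 difference 1.55 ± 0.38, adjusted p = 0.0172). In the KO tumours no member passed, against 13.4% of all genes, with 3736 genes at an unadjusted p under 0.05 in limma. Cox7a1 was again the member of smallest p, at 115 and 145 FPKM in ileum tumours and 61.4 and 49.6 FPKM in colon tumours (1.21 ± 0.38, adjusted p = 0.051). Cox7a1 did not overlap between organs in either genotype, and all 4 ileum tumours lay below every normal duodenum specimen (297 to 442 FPKM). Sdhb in contrast overlapped, at 143 and 171 FPKM in WT ileum tumours and 118 and 206 FPKM in WT colon tumours. On a TPM scale 1 member was higher and 8 lower in the WT comparison, where the all-gene median moved to -0.22, and 0 higher and 1 lower in the KO comparison, where it moved to -0.11. After quantile normalisation 1 was higher and 7 lower with WT, and 1 higher and 1 lower with KO. Leaving out WT ileum tumour 2 ended the call, and 6 members passed without WT colon tumour 1 and 2 without WT colon tumour 2.

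The Cftr genotypes were compared in 4 settings, and no member passed in any of them. In colon labelled KO, none of 89 members passed against WT colon, where limma called 0% of all genes and 948 had an unadjusted p under 0.05. In duodenum none passed, against 0% of all genes, with 368 at an unadjusted p under 0.05. In ApcMin colon tumours none passed, against 0.0638% of all genes, with 1708 at an unadjusted p under 0.05, and in ApcMin ileum tumours none, against 0.121%, with 825. The core median was 0.15 in colon (72 of 79 subunits positive), 0.17 in duodenum (74), 0.15 in ApcMin colon tumours (72) and 0.21 in ApcMin ileum tumours (73). On a TPM scale these medians were 0.20 in ApcMin ileum tumours, 0.05 in those of ApcMin colon, 0.08 in normal duodenum and 0.07 in normal colon. In ApcMin colon tumours the core median turned to -0.13 without WT tumour 1 and reached 0.44 without WT tumour 2. With groups of 2, the exact permutation test of a single value cannot go below p = 0.333.

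The member of smallest p in colon was Cox4i2, at 0.763 and 0.868 FPKM in KO colon and 1.70 and 1.51 FPKM in WT colon (log2 difference -0.52 ± 0.13, adjusted p = 0.428). In ApcMin colon tumours it was also Cox4i2, at 0.957 and 1.07 FPKM with KO and 1.50 and 1.65 FPKM with WT Cftr (adjusted p = 0.314). The groups did not overlap in either, but the levels were close to the lower limit of the test. In ApcMin ileum tumours it was Ndufs1, at 57.1 and 59.5 FPKM with KO and 43.6 and 49.5 FPKM with WT Cftr (0.32 ± 0.14, adjusted p = 0.801). In duodenum it was Cox4i2 again, at 0.578 and 0.700 FPKM in KO and 1.11 and 0.977 FPKM in WT (adjusted p = 1). Without ApcMin WT colon tumour 2, 14 members passed in ApcMin colon tumours, and without ApcMin KO colon tumour 2 1 member did. The genotype change did not differ detectably between duodenum and colon (0 members, 0% of all genes, 315 at an unadjusted p under 0.05) or between ileum and colon tumours (0 members, 0%, 676).

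**Figure D5:**
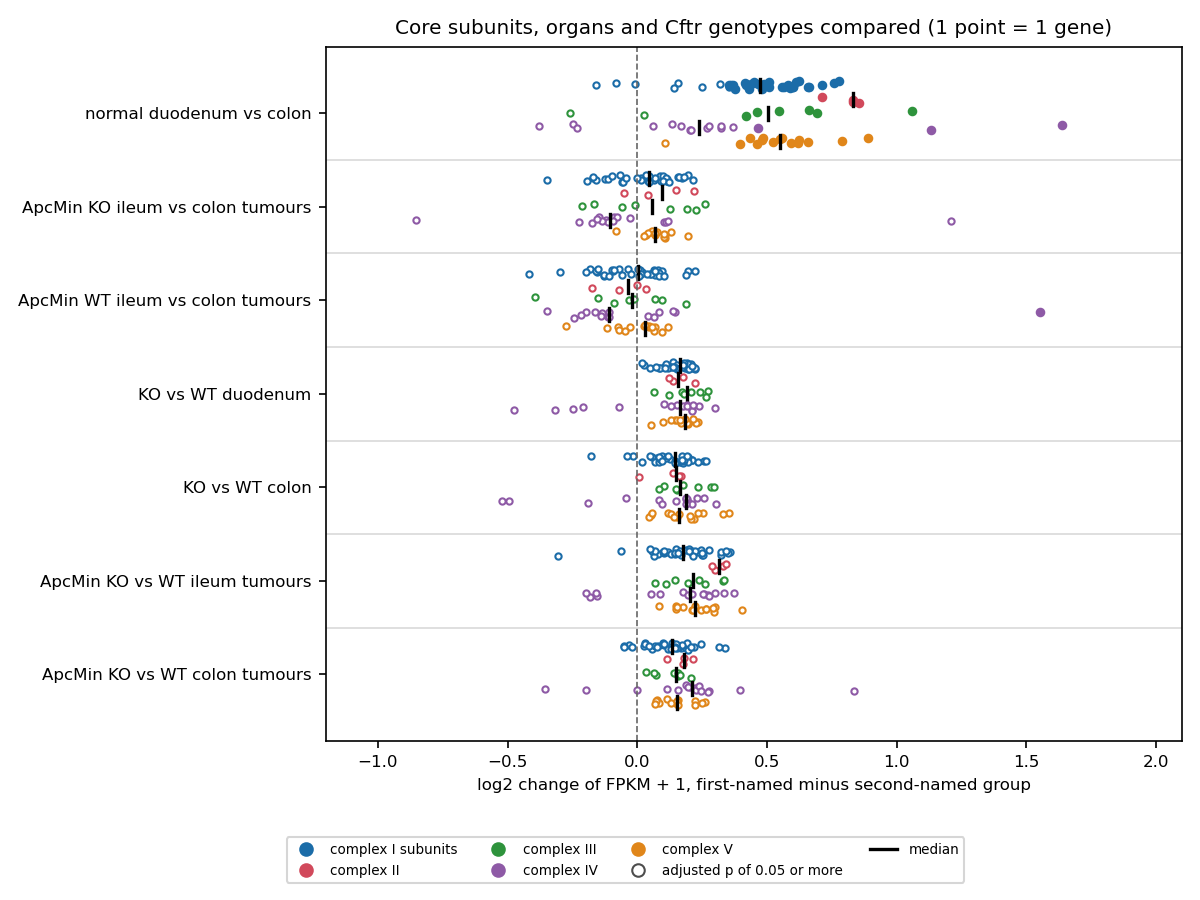
Log2 difference for each of the 79 tested core subunits, in normal duodenum minus colon, ApcMin ileum minus colon tumours with KO and with WT Cftr, and KO minus WT in 4 settings; filled points passed the adjusted p of 0.05 and black bars are the medians of each complex. Filled points are in the first comparison apart from Cox7a1 in WT ileum tumours, and the medians of the 4 genotype comparisons lie at 0.13 to 0.31 with none filled.

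Isoforms of complex IV and complex V subunits were used in different proportions. Cox7a1 made up 43.2% to 55.3% of the sum of Cox7a1 and its widely expressed relative Cox7a2 in normal duodenum, against 27.5% to 33.1% in normal colon. In tumours the share was 43.1% and 28.1% in KO duodenal, 48.1% and 44.6% in heterozygous duodenal, 37.1% to 45.1% in ileum and 15.1% to 23.4% in colon tumours. Colon tumours of all kinds thus lay below normal colon in this share. Skeletal and heart muscle markers, which accompany Cox7a1 in muscle, summed to 9.34 to 35.8 FPKM over all specimens, with Myh4 at 0 throughout. The c subunit of ATP synthase is made from Atp5g1, Atp5g2 and Atp5g3, whose mature proteins are identical. Atp5g3 gave 56.9% to 71.2% of their summed FPKM, and its share was 69.9% to 71.2% in normal duodenum against 60.9% to 63.8% in normal colon. Atp5g2 passed in no comparison with normal tissue described above, and its group means spanned 1.39-fold. Of its 50-base words, 21.0% also occur in other genes, so its level is uncertain. For Atp5o, 31.6% of exon bases are shared with Donson on the same strand, and without a stated strand setting Ndufaf2, Ndufb6 and Ndufa13, which overlap genes on the opposite strand over 65.6%, 39.0% and 30.0% of exon bases, are uncertain too.

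Other mitochondrial lists were described for the same comparisons. Of 17 genes of the citric acid cycle and pyruvate dehydrogenase, which feed the chain, 14 fell in the KO colon tumour (median -0.70), where 5.7% of all genes were lower. In heterozygous duodenal tumours 14 fell (-0.61), against 9.26% of all genes, and in heterozygous colon tumours 11 (-0.38), against 26.5%. In ApcMin WT colon tumours 8 fell (-0.30), against 18.9% of all genes, in ApcMin KO colon tumours 4 (-0.43), against 5.62%, and in KO duodenal tumours 2 (-0.30), against 4.23%. Cs, citrate synthase, was at 146 FPKM in the KO colon tumour, against 293 and 398 FPKM in KO colon (log2 difference -1.22 ± 0.23, adjusted p = 0.00702). In normal duodenum 14 of the 17 were higher and 1 lower than in colon, against 28.5% and 27.1% of all genes. Of 16 tested regulators of mitochondrial genes, some passed, in both directions. In ApcMin KO colon tumours 2 were higher and 0 lower, against 5.26% and 5.62% of all genes. In heterozygous colon tumours the numbers were 3 and 4, against 26.8% and 26.5%, and in ApcMin WT colon tumours 3 and 3, against 19.1% and 18.9%. The counts in these last 2 comparisons were thus near or below the shares of all genes. In heterozygous duodenal tumours 0 were higher and 3 lower, against 9.71% and 9.26%. In KO duodenal tumours the numbers were 0 and 1, against 3.94% and 4.23%. Nrf1 (8.76 to 10.9 FPKM over all specimens) and Gabpa (11.7 to 14.9 FPKM), whose motifs are marked in the promoters, passed in none of these comparisons. Pprc1, a relative of the PGC-1 coactivators, was higher in ApcMin WT colon tumours, at 15.1 and 9.67 FPKM against 9.22 and 6.73 FPKM in WT colon (0.57 ± 0.19, adjusted p = 0.0394). Ppargc1b was at 3.33 FPKM in the KO colon tumour, against 9.66 and 11.3 FPKM in KO colon (-1.41 ± 0.42, adjusted p = 0.0449), and it was lower by 1.61 in heterozygous colon, 1.46 in ApcMin WT colon and 1.14 in heterozygous duodenal tumours. Ppargc1a was at 6.32 and 4.03 FPKM in KO duodenal tumours, against 12.9 and 12.6 FPKM in KO duodenum (-1.18 ± 0.27, adjusted p = 0.0187). It was also lower in ApcMin WT colon tumours (-1.64), heterozygous duodenal tumours (-0.92) and heterozygous colon tumours (-0.56). Esrra, which encodes ERR-alpha, was lower in heterozygous (-0.77) and ApcMin WT (-0.64) colon tumours, and higher in normal duodenum than in colon, at 151, 154, 134 and 130.4 FPKM against 64.9, 81.5, 67.7 and 75.8 FPKM (adjusted p = 0.00056). Not all regulators shared this direction between the normal organs. Ppargc1a was higher in duodenum (12.03 to 12.93 against 6.592 to 11.23 FPKM). Ppargc1b (7.288 to 9.035 against 9.661 to 12.79 FPKM) and Yy1 (28.91 to 31.96 against 36.85 to 38.26 FPKM) were lower there, without overlap. The transcription factor gene Myc was at 23.05 to 39.66 FPKM in colon tumours, against 10.64 to 17.51 FPKM in normal colon. Its log2 differences were 0.98 to 1.26 over the 4 kinds of colon tumour, of which the KO kind was 1 specimen. Whether they passed is not given here.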

How the data were processed

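Polyadenylated RNA of 23 specimens in 12 groups was sequenced, with 15 specimens in run 1 and 19 in run 2, of which 11 were in both. Per the submitters' processing notes, the tools were TopHat2 2.0.13, FastQC and Cuffnorm, the last of unstated version, and the build was mm10. As deposited, the authors' values are FPKM in a table of 23356 rows and 68 columns, in which 27 gene names had become dates. No counts were given, so depth was read from the steps between low values, relative depth spanned 0.717 to 1.32, and no counting interval was computed. Whether counting used strand is not given in the sources used here. The labels call colon specimens whole tissue and duodenum specimens epithelium, whereas the design text has epithelial cells from colon and duodenum stripped of villi. It also counts more mice and normal specimens per group than the labels hold.

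Columns were averaged per specimen. A gene was tested if 2 or more specimens reached 1 FPKM, which kept 14098. The test was limma 3.58.1 (R 4.3.3; lmFit, eBayes with a trend) on log2(FPKM + 1), Benjamini-Hochberg adjusted at 0.05 over all genes, and the members were then counted. Fold changes are on that scale, which understates changes of low genes. ApcMin colon tumours were set against normal colon in run 2 columns (KO, WT) or run 1 columns (heterozygous), and duodenal tumours of heterozygotes in run 1 columns, so that compared groups share a run. All other comparisons used every column of a specimen, from both runs where it had both. ApcMin KO and WT tumours were sequenced in run 2 only, so comparisons among them rest on run 2 columns. The fit was checked on simulated data.

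The members and lists were chosen with earlier results of these data known. Named genes were, per comparison and complex, up to 4 of largest change in each direction that passed and reached 5 FPKM in the higher group. Named whatever their p were the Sdh and Atp5g genes, tissue-restricted isoforms with their relatives, and the highest and lowest member of each complex. Where no member passed, those of smallest p are given. Other genes named in the text come from the fixed lists, and not every gene the rule takes is described.

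KO duodenum and KO colon came from the same animals, as did WT duodenum and WT colon, and deviations of paired specimens correlated across genes at 0.0332 and 0.0103. The WT duodenum specimens differed by about the noise between lanes, so the value of 0.0103 cannot show whether pairing matters. The alternatives tried were quantile normalisation, a TPM scale, a pseudocount of 0.1, no filter, a replicate block, each run alone, the compared groups alone, WT duodenum as 2 specimens, no run 1 library of WT colon 2, which differed from its run 2 library by an SD of 0.391 against 0.138 to 0.192 elsewhere, and each specimen left out.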

Additional observations from a re-analysis of the deposited data

How the results depend on the processing

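Counts of members that passed were recomputed under each alternative, and no named gene that had passed changed direction. Of the recomputed values for genes named in a comparison, 1193 kept their side of the threshold and 266 lost it. The complex IV median between normal duodenum and colon turned to -0.15 (quantile) and -0.11 (TPM) and that of the assembly factors to -0.10 (TPM). With a replicate block, members called numbered 30 in heterozygous duodenal tumours, 72 between normal duodenum and colon, where animal was the block, and 0 in KO duodenal tumours, ApcMin WT colon tumours, KO against heterozygous duodenal tumours and WT ileum against colon tumours; outside normal duodenum and colon the replicate numbers pair no animals, with correlations of deviations of -0.24 to 0.35, and the ileum and colon tumours of each ApcMin genotype all carry 1 animal number. With the compared groups alone, the count was 0 in KO duodenal, ApcMin WT colon and heterozygous duodenal tumours, in KO against heterozygous duodenal tumours and in WT ileum against colon tumours, 9 in the KO colon tumour, and 1 each in ApcMin KO colon tumours and KO ileum against colon tumours. Quantile normalisation gave 1 in KO duodenal tumours, 20 in the KO colon tumour, 8 in ApcMin KO colon tumours, 0 in KO against heterozygous duodenal tumours, 26 between normal duodenum and colon, and 8 (WT) and 2 (KO) in ileum against colon tumours. The TPM scale gave 0, 16, 4, 0, 30, 9 and 1 in that order, and 25 in ApcMin WT colon tumours. Without a filter the counts were 1 in KO duodenal, 20 in KO colon and 9 in ApcMin WT colon tumours, and 2 in KO against heterozygous duodenal tumours, and the pseudocount of 0.1 gave 1 in that comparison and 1 in KO duodenal tumours. WT duodenum as 2 specimens gave 22 in KO against heterozygous duodenal tumours, 5 in ApcMin KO colon tumours and 1 in KO ileum against colon tumours. Run 1 alone gave 7 in KO duodenal tumours and 65 in the KO colon tumour, and run 2 alone 1 and 16. Leaving out each specimen in turn gave 0 to 1 in KO duodenal tumours, 1 to 6 in the KO colon tumour, 1 to 58 in ApcMin WT colon tumours, 37 to 60 in heterozygous colon tumours, 51 to 67 in heterozygous duodenal tumours, 0 to 22 in KO against heterozygous duodenal tumours, 49 to 63 between normal duodenum and colon, 0 to 6 (WT) and 0 to 1 (KO) in ileum against colon tumours, and 0 to 14 in ApcMin KO against WT colon tumours. The replicate block used the compared groups alone and counted WT duodenum as 2 specimens. The shares of all genes under these alternatives are not given, so the counts have no background beside them. The cause of these shifts was not tested. Depth limits mainly members of low FPKM, such as Cox4i2, Cox8b and Ndufa4l2.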

Other observations

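Mitochondrial ribosomal proteins, which translate the subunits encoded in mitochondrial DNA, were counted beside the shares over all genes. Of 76 tested, 14 were higher and 0 lower in ApcMin WT colon tumours than in WT colon (median log2 difference 0.21), where 19.1% of all genes were higher and 18.9% lower, so the count of higher genes was near the background. In heterozygous colon tumours 30 were higher and 7 lower than in normal colon (0.14), against 26.8% and 26.5% of all genes. In heterozygous duodenal tumours 0 were higher and 22 lower (-0.21), against 9.71% and 9.26%, and in the KO colon tumour 0 were higher and 1 lower (-0.08), against 7.12% and 5.7%. In normal duodenum 60 were higher and 1 lower than in colon (0.43), against 28.5% and 27.1%. The difference between this list and the core subunits was not tested.

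Of 18 genes of general mitochondrial mass, such as import receptors, chaperones and porins, 6 were higher and 2 lower in ApcMin WT colon tumours, 5 higher and 7 lower in heterozygous colon tumours, 1 higher and 5 lower in the KO colon tumour, and 0 higher and 7 lower in heterozygous duodenal tumours. Of 36 mobile carriers and other assembly factors, 3 were higher and 15 lower in heterozygous colon tumours, 0 higher and 20 lower in heterozygous duodenal tumours, and 25 higher and 2 lower in normal duodenum than in colon. The shares over all genes are those just given, and several of these counts, such as 5 of 18 higher in heterozygous colon tumours, are near them.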
